A study of Homo sapiens with 16 samples.

Results

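The regions described here are the 20 kb bins of the genome whose contact with themselves fell least, or rose, between short and long digestion in a Hi-C experiment. They number 12674 of the 126745 autosomal bins that could be ranked. For each bin the self share was the signal of the bin with itself, divided by all signal of that bin. D was the log2 ratio of the mean self share at 0.25 h of digestion to the mean at 12 h, so a high D means that self contact fell with digestion. The members are the bins in the bottom 10% of D. The 0.25 h and 12 h libraries therefore chose them, and values of those libraries are given as description only.

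Hi-C joins DNA ends that lie close together in fixed nuclei and reads the joined pairs. The restriction enzyme sets where ends can form, and a bin that is cut rarely or poorly offers few ends to join. On chromosomes, contacts gather into domains with boundaries between them, and into compartments in which gene-rich, active chromatin meets its like.

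The cells were K562, an established human leukaemia line that carries the BCR-ABL1 fusion. All samples were fixed with formaldehyde and differed by design only in the length of HindIII digestion, 0.25, 1, 3 or 12 h, with 2 replicates at each time, and no undigested sample was analysed here. The series states that short digestion was meant to reveal the most accessible boundaries. The titles of 8 samples end in seq2, which was taken to mean a second sequencing run of the other 8. The labels do not state this outright. The members come from the samples with this mark, called the second run here, which the authors binned at 20 kb.

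The second-run libraries held between 62777251 and 176412222 contacts, of which 88.0% to 90.4% joined bins of the same chromosome. The strongest contact between chromosomes 9 and 22 joined chr9:133000001-134000000 with chr22:23000001-24000000 in all 8 libraries, the place of the fusion named above. It held 5194 to 26287 contacts, against a median of 2 to 4 for window pairs of those chromosomes. The labels do not say whether the replicates were separate cultures, so p-values measure the spread between these libraries, which may be technical.

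Self contact of members was low from the start. At 0.25 h the median self share of members was 2.68% in replicate 1 and 2.07% in replicate 2, against 7.94% and 8.71% in the other bins. At 1 h it was 3.16% and 3.01% in members and 7.41% and 7.49% elsewhere. At 3 h it was 3.11% and 2.95% in members and 7.09% and 6.98% elsewhere. At 12 h it was 2.61% and 2.54% in members and 4.60% and 4.53% elsewhere. The members' medians stayed within a narrow band over all 4 times, while those of the other bins were lowest at 12 h, and even there they stood above every median of the members. The 1 h and 3 h libraries did not choose the members, and they too showed the low self share.

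**Figure D1:**
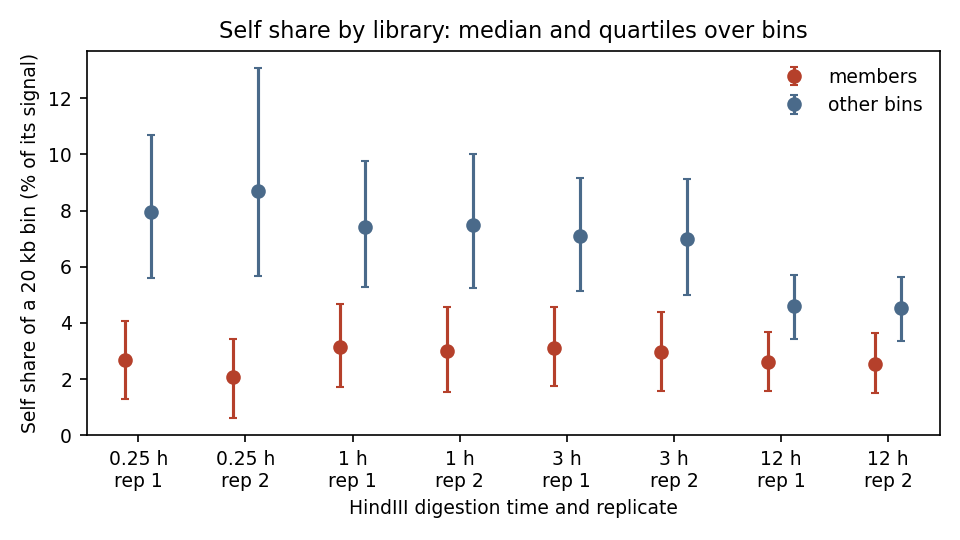
Self share of 20 kb bins (percent of the signal of a bin) in each library by digestion time and replicate, with points for the median over bins and bars for the quartiles, for members and for all other bins. Medians of members lie between 2.07% and 3.16% in all 8 libraries, and those of other bins fall to 4.60% and 4.53% at 12 h.

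The median D of members was -0.040 and that of all ranked bins was 0.78. Self share was higher at 12 h than at 0.25 h (D below 0) in 6899 members, 54.4% of them. Bins with D below 0 were 5.44% of all ranked bins, and since the threshold lay above 0 the rule made every one a member. The 6899 include 1109 members in which no self contact was seen in either 0.25 h library, so their D is minus infinity. The lowest finite D was -3.71. The threshold did not fall in a gap. The last member, chr11:59560001-59580000, had a D of 0.22842 and the first bin outside had 0.22845. A further 3253 bins had no self contact in any 0.25 h or 12 h library and were not ranked.

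Members were measured with few contacts. Recovered whole contacts gave a median of 9 and 3 self contacts per member in the 0.25 h libraries, replicates 1 and 2, against 119 and 72 in the other bins. At 12 h the medians were 18 and 15 in members and 112 and 97 elsewhere. All contacts of a bin together had medians of 652 and 332 in members at 0.25 h, against 1432 and 756. At 12 h members had 1210 and 1068 contacts and the other bins 2396 and 2089. In all 8 libraries members thus held fewer contacts than other bins, and the gap was widest for self contacts.

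The counting error of D followed from this. The median standard error of D from counting alone was 0.43 in members and 0.15 in the other bins. The 95% counting interval of D lay below the median of all bins in 5905 members (46.6%), below the threshold in 304 (2.40%) and below 0 in 76 (0.600%). These are shares of all 12674 members, of which the 1109 with a D of minus infinity have no such interval. For most members the counts therefore do not show on which side of the threshold the bin lies. At least 20 self contacts in each 0.25 h and 12 h library were found in 1564 members (12.3%) and in 76.7% of the other bins.

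Membership depended closely on contacts. When the ranked bins were divided into 20 classes of equal size by their contacts, members made up 37.5% of the class with the fewest, 10% of class 8 and 0.347% of the class with the most. The median D rose only from 0.59 to 0.87 over the same classes. What changed was the spread. In class 2 the 10th and 90th percentiles of D were -0.65 and 1.93, and in class 20 they were 0.58 and 1.18. Because membership went with contacts, many results that follow are given also for the bins with the lowest D within each contact class, which share 7380 bins with the members (58.2% of members and 58.3% of that set).

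**Figure D2:**
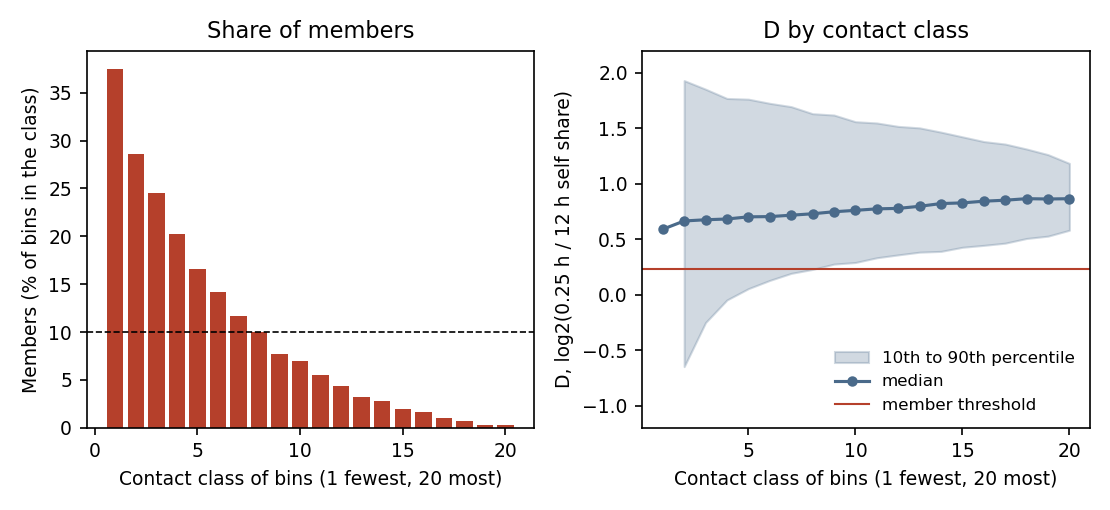
Left, percentage of bins that are members in 20 classes of bins ordered by contacts, with a dashed line at 10%; right, median D of each class with the 10th to 90th percentile shaded (for class 1 the 10th percentile is minus infinity and is not drawn) and the member threshold as a line. The median changes from 0.59 to 0.87 while the spread narrows, and members fall from 37.5% to 0.347% of a class.

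The ranking carried over between replicates in part. Bins chosen by D in replicate 1 alone had a median D of 0.40 in replicate 2, where all bins had 0.87, and 33.3% of them were in the bottom 10% of replicate 2 against 9.87% of all bins. Chosen in replicate 2 and read in replicate 1, the median was 0.44 against 0.74 and the share was 33.0%. In both directions the chosen bins stood below the whole set, but most of them left the bottom 10%. All bins are not matched to the chosen ones in contacts, and contact-poor bins fall in the bottom 10% more often. Both replicates also fed the rule, so these values are description only. The bottom 10% was cut over all bins. Few bins with at least 20 self contacts in each 0.25 h and 12 h library fell in it. They were 8.02% of chosen and 1.47% of all such bins in replicate 2, and 13.6% and 2.50% in replicate 1. The median D of these chosen bins was 0.54 in replicate 2, against 0.97 for all such bins, and 0.46 against 0.78 in replicate 1. Below the median of the other replicate lay 88.7% and 90.6% of them, against 75.4% and 70.9% of all chosen bins. The first sequencing run, binned at 50 kb by the authors, was taken as a second reading of the same libraries from its titles, which the labels do not state outright. On that reading it holds the same 0.25 h and 12 h samples that chose the members, so it is not used as independent support. Its median D was 0.69 in bins that hold no member, 0.63 with 1 member, 0.45 with 2 and 0.25 in the 38 bins with 3.

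The 1 h and 3 h libraries give a contrast of the same measure that the rule did not use. The median log2 ratio of the 1 h to the 3 h self share was 0.0049 in members and 0.085 in all bins, and it was above 0 in 50.5% of members and 68.5% of all bins. For the bins with the lowest D within contact classes the median was 0.023. With 1 library left out, the median of members ran from -0.039 (without 3 h replicate 2) to 0.065 (without 1 h replicate 2). That of all bins was 0.069 and 0.083 in the same order, and members stayed below all bins whichever library was left out. A limma fit of log2(self share in percent + 0.1) over all 126745 bins called 0 of them between 1 h and 3 h after Benjamini-Hochberg adjustment (percent called 0), and so 0 members. At an unadjusted limma p under 0.05 it picked 730 members (5.76%), beside 8.51 percent of all bins. Without a trend of variance on level, limma called 114 bins, 64 of them members. Leaving out a library changed the count: without 1 h replicate 2 limma called 280 bins (160 members), without 3 h replicate 1 it called 418 (232 members), without 3 h replicate 2 it called 545 (311 members), and without 1 h replicate 1 it called 0. The calls do not hold from one set of libraries to another, and none is used here.

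Per library, the log2 self share of members minus that of other bins was -1.21 (replicate 1) and -1.29 (replicate 2) in the 1 h libraries. In the 3 h libraries it was -1.16 and -1.21. For the lowest D within contact classes the 4 values were smaller in size, -0.72 and -0.78 at 1 h and -0.67 and -0.72 at 3 h. With at least 20 self contacts they ran from -0.59 to -0.47. The 1 h and 3 h values of members overlap. Their means differed by -0.057 (exact permutation test, two-sided p = 0.667, with 0.333 the smallest that 2 against 2 libraries allow). Within contact classes and with at least 20 self contacts, both 1 h values lay below both 3 h values. The nearest pair within contact classes was -0.717 and -0.715. The same exact permutation test gave p = 0.333 for each of these sets.

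The change from 1 h to 3 h differed with the level of self share in other bins as well as in members. When bins were divided into 20 classes by their self share at 1 h and 3 h, a split chosen after the data were seen, the lowest 5 classes held 77.9% of members. In other bins the median log2 ratio of 1 h to 3 h was -0.089 in the lowest class, where self share was higher at 3 h, and 0.16 in the highest. In the lowest class the median log2 ratio of 1 h to 3 h was -0.053 in members, and in the next 2 classes members were higher than other bins as well, by 0.012 and 0.0019. In 11 of the 15 classes with at least 50 members the members' median was the lower, with differences from -0.064 to 0.036. In these classes of equal self share the members' difference was smaller than the 0.080 between members and all bins, and its direction was not the same in all of them. Members minus all bins itself moved with the libraries, to -0.018 without 1 h replicate 2 and -0.109 without 3 h replicate 2. The class values are given for all 4 libraries together only.

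The members lay on all autosomes. Chromosomes 22, 19 and 17 held the most for their size, with 16.8% of bins (250 of 1485), 16.8% (373 of 2221) and 13.4% (471 of 3517). Chromosomes 4, 6 and 5 held the fewest, with 8.21%, 8.28% and 8.53%. The 95% Wilson intervals were 15% to 18.8% for chromosome 22 and 7.67% to 8.79% for chromosome 4, and they cover counting error only. The median D of chromosomes differed little, from 0.75 on chromosome 22 to 0.81 on chromosome 13.

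Chromosomes 19, 17 and 22 are rich in genes. Across the 22 autosomes the share of members rose with protein-coding genes per Mb of ranked bins (Pearson's r 0.83, Spearman's rho 0.74), counting genes in the RefSeq annotation of a later assembly. It fell with the median contacts per bin (r -0.91, rho -0.90), and chromosomes 19 and 22 had the fewest, 600 and 610 per library. These correlations describe 22 chromosomes of the same libraries. Within contact classes the order turned: chromosome 19 then held 3.42% and chromosome 22 held 4.78% of bins with the lowest D, and r with genes was -0.59. The share within contact classes still went with the median contacts of a chromosome, but in the other direction (r 0.95, rho 0.95). Among bins with at least 20 self contacts, r with genes was -0.23, though rho was 0.38, and with contacts r was 0.25 and rho 0.069.

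**Figure D3:**
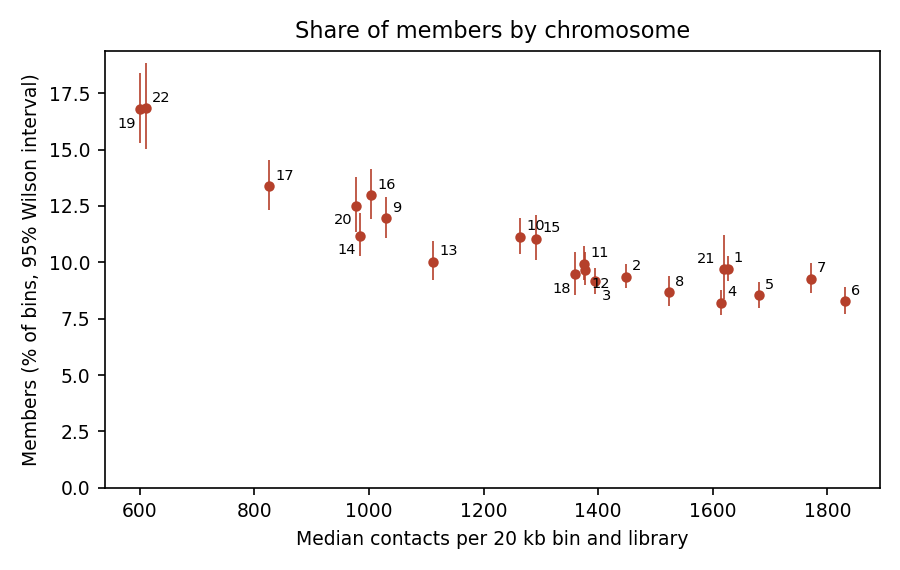
Percentage of ranked bins that are members on each of the 22 autosomes (points numbered by chromosome, bars are 95% Wilson intervals) against the median number of contacts per 20 kb bin and library. Chromosomes 19 and 22, with 600 and 610 contacts, hold 16.8% each, and chromosome 6, with the most contacts, holds 8.28%.

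Most members stood alone. Of the 12674, 9959 (78.6%) had no member beside them, 2212 were in pairs, and the longest unbroken run had 6 bins. When 10% of bins are chosen, most stand alone even if they are spread without order, so this share is no trait of the members. A bin next to a member was itself a member in 12.2% of cases (1449 of 11858, 95% Wilson interval 11.6% to 12.8%), where 10% of all bins are. At 40 kb the share was 11.2% and at 1 Mb it was 11.1%. The excess at 1 Mb was thus about as large as that at 40 kb, and only the adjacent bin stood slightly higher. Within contact classes the shares were 12.6% for the adjacent bin, 11.9% at 40 kb and 11.6% at 1 Mb.

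The flanks had ordinary values of D. The median D of bins 20 kb to either side of a member was 0.76, against -0.040 in the member and 0.78 in all bins. Contacts in the 1 h and 3 h libraries followed a similar shape, with a median of 653 in members, 1114 and 1109 in the bins on either side and 1311 in all bins. Flanks 200 kb away still had fewer contacts than all bins, 1190 and 1186. The low D of the member itself was fixed by the rule. The flanks show that it did not extend to the adjacent bins, and that the surroundings were somewhat poor in contacts.

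**Figure D4:**
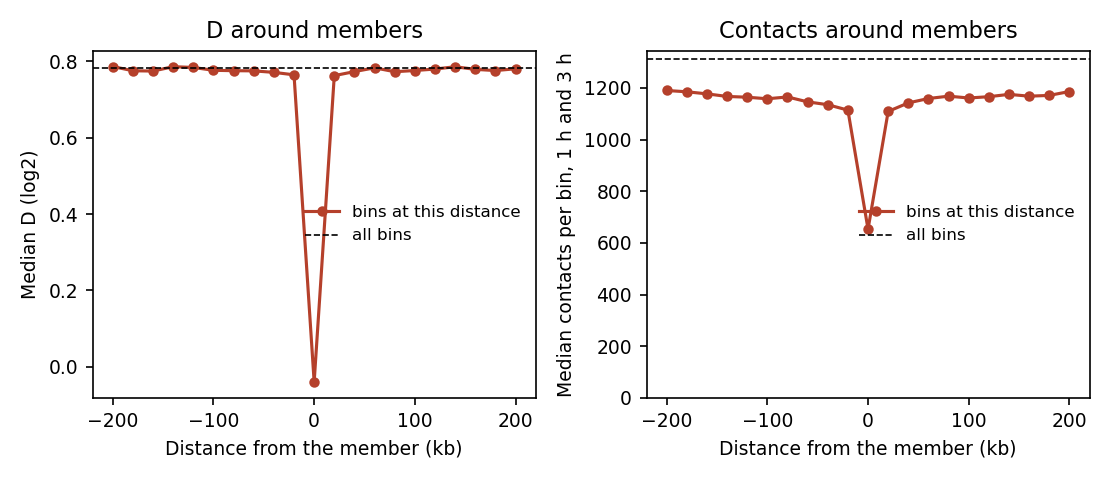
Median D (left) and median contacts per bin in the 1 h and 3 h libraries (right) of bins at each distance up to 200 kb from a member, with the value of all bins as a dashed line. D is -0.040 at the member and 0.76 in the adjacent bins, and contacts are 653 at the member and 1114 and 1109 beside it.

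Some stretches held many members all the same. Among 2520 windows of 1 Mb with at least 40 ranked bins, the median share of members was 8.51%, the 5th and 95th percentiles were 2.04% and 19.6%, and 44 windows had none. At least 30% were members in 12 windows. The highest share was in chr6:31000001-32000000, part of the major histocompatibility region, where 17 of 41 bins (41.5%) were members. Next came chr7:5000001-6000000 with 35.0% and chr15:41000001-42000000 with 34.8%. Chr7:56000001-57000000 and chr9:131000001-132000000 followed with 33.3% each, then chr22:49000001-50000000 with 32.6%. The last of the 10 highest were chr3:128000001-129000000 (31.9%), chr19:58000001-59000000 (31.8%), chr10:89000001-90000000 (31.1%) and chr22:37000001-38000000 (31.0%). Windows rich in members were usually poor in contacts, with medians from 338.5 to 803.5 per bin and library in 9 of these 10, and 1087 in the window on chromosome 10. Their median D ranged from 0.46 to 0.85, so even there most bins lost self contact with digestion.

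The longest runs rest on few contacts per bin. The run of 6 bins at chr11:4280001-4400000 had mean self shares of 3.39% and 2.94% at 0.25 h, 3.46% and 2.57% at 1 h, 4.99% and 4.83% at 3 h, then 4.53% and 3.78% at 12 h, replicates 1 and 2. In this balanced signal the 3 h and 12 h libraries were above the 0.25 h and 1 h ones, from 41 to 129 self contacts summed over the run. By recovered contacts this held for 3 h but not for 12 h: self contacts were 3.61% and 2.93% of all contacts of the run at 0.25 h, 3.99% and 4.003% at 3 h, then 2.64% and 3.04% at 12 h. The D from contacts was 0.20. The run of 4 bins at chr16:26740001-26820000 had a mean D of -0.69, and -0.61 from recovered contacts. Its mean self shares were 1.88% and 0.762% at 0.25 h, 2.02% and 1.27% at 1 h, 1.86% and 0.937% at 3 h, then 2.24% and 1.42% at 12 h. Replicate 1 was above replicate 2 at every time, by more than the times differed within a replicate. The other 3 longest runs were chr5:79540001-79640000 and chr19:41340001-41440000, of 5 bins each, and chr9:131080001-131160000, of 4. From recovered contacts their D was -0.30, 0.21 and -1.62. There were 16 runs of 4 bins, and the pair named here had the lowest mean of the finite D values. The run on chromosome 9 lies in the window of chromosome 9 named above and had 2 to 29 self contacts per library over all 4 bins.

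The lowest D values belonged to bins with almost no self contact at any time. Among members with at least 500 contacts in each 0.25 h and 12 h library, of which there were 3240, 2 had no self contact in either 0.25 h library. In chr1:197820001-197840000 there were 0 self contacts among 1252 and 545 contacts at 0.25 h, which allows a share of up to 0.240% and 0.550%. It had 5 and 1 self contacts at 1 h, 1 in each replicate at 3 h, then 1 and 2 at 12 h. In chr4:80980001-81000000 there were 0 among 1052 and 582 at 0.25 h, which allows up to 0.285% and 0.515%, and 3 and 2 at 12 h. Next were chr13:91020001-91040000 (D -2.33, counting SE 1.5), chr7:79460001-79480000 (-2.29, SE 1.10) and chr22:20760001-20780000 (-2.16, SE 1.48), with at most 11 self contacts in any of the 8 libraries. The bins on either side of all 5 had D between 0.38 and 0.94, above the threshold.

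Counting error was smaller in members with at least 20 self contacts in each 0.25 h and 12 h library, a list made after the values were seen. D was taken from balanced signal and its SE from recovered contacts, so the SE leaves out any error of the balancing. In 4 of the 5 named here D was above 0 when self share was taken from recovered contacts, though 82.3% of all members would be chosen from contacts too. The lowest D among them was -0.74 (counting SE 0.15) at chr12:31280001-31300000. Its self share was 5.18% and 2.05% at 0.25 h, 5.96% and 3.17% at 1 h, 4.53% and 4.01% at 3 h, then 6.59% and 5.48% at 12 h. Both 12 h values were above both 0.25 h values, and replicate 1 was above replicate 2 at every time. By recovered contacts the direction turned: self contacts were 10.01% and 9.87% of the contacts of the bin at 0.25 h and 6.401% and 4.56% at 12 h, a D of 0.86. The bin after it had a D of -0.037 and the bin before it 0.65. Chr10:5240001-5260000 (D -0.43, SE 0.16) and chr14:48960001-48980000 (-0.36, SE 0.24) had ordinary neighbours, with D from 0.73 to 1.25. From recovered contacts their own D was 0.14 and 0.056.

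The remaining 2 of these 5 bins had higher self shares than the first 3 at every time. In chr16:2200001-2220000 (D -0.43, SE 0.15) the self share was 9.31% and 11.3% at 0.25 h, 12.4% and 12.2% at 1 h, 9.90% and 12.6% at 3 h, then 14.5% and 13.2% at 12 h. These lie above the medians of other bins in every library, and the D from recovered contacts was -0.29, the same direction. In chr14:19100001-19120000 (D -0.29, SE 0.15) it was 5.87% and 6.02% at 0.25 h, 6.41% and 6.96% at 1 h, 7.25% and 9.44% at 3 h, then 6.99% and 7.51% at 12 h. In this signal every later value was above both 0.25 h values, but from recovered contacts the D was 0.23, the other direction. The bins before and after it had D of -0.49 and -0.26 in the balanced signal, so it sits inside a run of members.

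Members were frequent near chromosome ends and near bins absent from a second-run library. Why those bins were absent was not tested. Within 1 Mb of a chromosome end 15.1% of bins were members, within 1 Mb of the longest stretch of absent bins of a chromosome 15.1% were, and of bins next to an absent bin 19.9% were (733 of 3676). These bins had fewer contacts, with medians per library of 690, 952.5 and 510. Ranked within contact classes the shares were 6.32%, 7.06% and 6.39%, all below 10%. The excess at these places was thus not found within contact classes.

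Domains were read from the 1 h and 3 h libraries. The insulation score is the log2 of the mean signal that crosses a bin within 200 kb on each side, over the chromosome mean, and a low score marks a boundary. Its mean in members was -0.020 and in other bins -0.050. The difference was 0.030 and 0.029 in replicates 1 and 2 of 1 h, and 0.031 and 0.029 in those of 3 h (mean 0.030, SD 0.00094, higher in 4 of 4 libraries, exact sign-flip permutation test, two-sided p = 0.13, the smallest that 4 libraries allow). More signal crossed members than other bins, by about the same amount in each library. With a window of 500 kb no difference was detected (-0.00022, above 0 in 1 of 4 libraries, exact sign-flip permutation p = 0.375). With members ranked within contact classes it was -0.025, above 0 in 0 of 4 libraries, so the direction turned there. Without the 20% of bins with the fewest contacts it was 0.0011, and with at least 20 self contacts 0.0095. Boundaries, taken as local minima of the score, were somewhat more common among members: 7.25% of members and 5.21% of other bins were boundary bins, and 13.1% of boundary bins were members. Within contact classes that last share was 10.4%, beside 10% for all bins.

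The compartment score was the first eigenvector of the cis contact map in 200 kb bins, in units of its SD, turned so that high values have more trans contact with chromosomes 19, 17 and 22 than with 13, 18 and 4. On some chromosomes it followed this trans contact weakly. The correlation in the 1 h and 3 h libraries was 0.246 to 0.256 on chromosome 9, against 0.785 to 0.820 on chromosome 1. Members scored higher than other bins by 0.13 in each of the 1 h and 3 h libraries (mean 0.13, SD 0.0026, 4 of 4 libraries, exact sign-flip permutation test, two-sided p = 0.13). Without chromosomes 9, 13, 17 and 22, left out after the data were seen, the difference was 0.14. Bins with a score above 0 held 58.1% of members and 51.5% of other bins. In 5 equal groups of bins, from the lowest to the highest score, members were 8.37%, 8.75%, 9.88%, 11.7% and 11% of bins, so the group below the highest held the most. Within contact classes the difference in score was -0.067, without the 20% of bins with the fewest contacts it was -0.010, and among bins with at least 20 self contacts it was -0.0031. Within contact classes the tilt thus ran the other way, above 0 in 0 of 4 libraries. Under both filters on contacts the difference was much smaller in size. The filters do not match contacts: the median contacts of the chosen bins, over those of the others, were still 0.72 and 0.91.

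Balancing gives every bin the same total, so a bin with little self signal has more for its other contacts by construction. In the 1 h and 3 h libraries members had higher signal per possible pair than other bins in all 12 distance classes (limma adjusted p under 0.05, percent called 100), by log2 0.15 at 100 to 200 kb, 0.061 with the adjacent bin, 0.031 at 1 to 2 Mb and 0.15 in trans. The SD over the 4 libraries of 1 h and 3 h was 0.0054, 0.0046, 0.0077 and 0.011 in these classes. Within contact classes limma called 11 of the 12, and the same 4 classes stood at 0.011, 0.066, 0.035 and 0.049, so the excess at 100 to 200 kb and in trans was much smaller there. Of the libraries that chose the members, both of 12 h stood below 0 at 1 to 2, 2 to 5 and 10 to 20 Mb, with -0.011 and -0.014 at 1 to 2 Mb. When only signal off the self pair was counted, an alternative added after the data were seen, the adjacent bin stood at -0.0047 and 1 to 2 Mb at -0.033, while the other named classes stayed above 0. Relative to the rest of their signal, members therefore had slightly less contact at 1 to 2 Mb than other bins. With the self pair counted, 2 to 5, 5 to 10, 10 to 20 and 20 to 50 Mb were low as well, at 0.040, 0.053, 0.033 and 0.048. Their values off the self pair are not given here, so the lower contact may not be particular to 1 to 2 Mb. Signal off the self pair was not read within contact classes.

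The trans partners of members were unequal. Trans signal with each partner chromosome was set relative to the mean over chromosomes and compared with that of other bins in the 1 h and 3 h libraries. Contacts of the BCR-ABL1 fusion count as trans here and were not left out. Their part in the value of chromosome 22 was not tested. Limma called 19 of 22 partner chromosomes at an adjusted p under 0.05 (percent called 86.4), of which 11 were higher in members (50) and 8 lower (36.4). Chromosome 22 was highest, at log2 0.26 (SD 0.011, n = 4, range 0.25 to 0.27, limma adjusted p = 9.9e-56). It was followed by 19 at 0.19 (SD 0.0097, limma adjusted p = 5.8e-47) and 17 at 0.17 (SD 0.0046, limma adjusted p = 5.5e-44). The lowest were 4 at -0.083, 13 at -0.079 and 8 at -0.074, with limma adjusted p of 3.7e-26, 3.2e-25 and 7.8e-24. The small p-values come from ratios that are nearly alike in the 4 libraries, and from a spread that limma shared over all 22 chromosomes. They say nothing of the spread among bins.

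The pattern over partners turned within contact classes. For the bins with the lowest D within contact classes, chromosome 22 stood at -0.019 (limma adjusted p = 0.058), 19 at -0.14 (limma adjusted p = 8.4e-08) and 17 at -0.095 (limma adjusted p = 8.4e-08). Chromosomes 4, 13 and 8 stood at 0.032, 0.035 and 0.018. All 6 chromosomes named thus changed sign within contact classes. That set is spread otherwise over the chromosomes, with 3.42% of the bins of chromosome 19 and 14.2% of those of chromosome 7. With D ranked within each chromosome all 6 kept the members' direction. Chromosomes 22, 19 and 17 then stood at 0.18, 0.13 and 0.10, and 4, 13 and 8 at -0.048, -0.085 and -0.050. Filters on contacts made the differences smaller but turned fewer of them. Without the 20% of bins with the fewest contacts, limma called 8 partner chromosomes. Chromosomes 22 and 17 stood at 0.064 and 0.026 and 8 at -0.016, all called in the members' direction. Chromosome 19 stood at -0.0076 and 4 at -0.0044, neither of them called, and 13 turned to 0.019. Among bins with at least 20 self contacts 11 were called, with 22 at 0.097, 19 at 0.020, 17 at 0.019 and 8 at -0.023, while 4 was not called and 13 turned to 0.035.

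**Figure D5:**
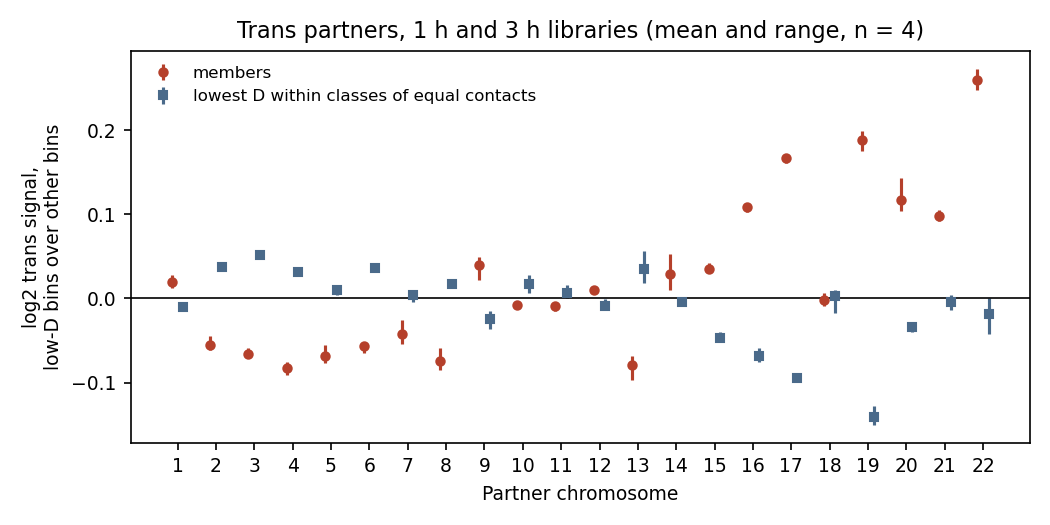
Log2 ratio of relative trans signal with each of the 22 partner chromosomes, members over other bins (circles) and the same for bins with the lowest D within classes of equal contacts (squares), as mean and range of the 4 libraries of 1 h and 3 h. Chromosome 22 is at 0.26 for members and at -0.019 within contact classes, and chromosome 19 at 0.19 and -0.14.

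Members met each other in trans somewhat more than their other contacts would give. The log2 of member to member signal times other to other signal, over the square of the mixed signal, was 0.093 and 0.095 in replicates 1 and 2 of 1 h, and 0.11 in each replicate of 3 h (mean 0.10, SD 0.0090, above 0 in 4 of 4 libraries, exact sign-flip permutation test, two-sided p = 0.13). The 0.25 h libraries, which helped to choose the members, gave 0.12 and 0.17. Among bins with at least 20 self contacts the value was -0.0017 (exact sign-flip permutation p = 0.75), without the 20% of bins with the fewest contacts it was 0.0051, and within contact classes it was 0.032. Among bins with many contacts the excess was thus small or not detectable. Within contact classes it was smaller than in members, but above 0 in 4 of 4 libraries, from 0.023 to 0.037.

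The rule was written to find candidates for chromatin that is cut early. These files hold contacts only, and no measure of cutting or of accessibility was analysed here. The number of HindIII sites in each bin was not counted, and its part in these results was not tested.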

How the data were processed

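The authors deposited 16 tables, 1 per library and run, that list bin pairs with a balanced contact signal; this unit was read from the values. HiC-Pro 2.11.1, Bowtie2 2.3.4.1 and build hg19 are named in the submitters' processing notes. The deposited signal sums to the same total in every bin of a file, which removes coverage. Each table was therefore also turned back into whole contacts, and all listed values came within 0.01 of a whole number. Contacts amplified by PCR are not independent molecules, so intervals and limits of a count of 0 (3 contacts) cover counting error only.

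The members and lists were chosen with earlier results of these data known. Bins absent from a second-run file, and chromosomes X, Y and M, were left out. Compartment and insulation scores came from the deposited signal of each library, with boundaries at a prominence of at least 0.2. Named regions are the 10 windows of 1 Mb richest in members, the 5 longest runs (ties by the lower mean of finite D), the 5 lowest D with at least 500 contacts, and the 3 highest and 3 lowest chromosomes. Coordinates are hg19. No hg19 annotation was used here, so no gene or sequence is given.

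Tests used limma 3.58.1 in R 4.3.3, tested on simulated data, and exact sign-flip tests over libraries in Python 3.11.15 with numpy 2.4.6. Same-numbered replicates of 1 h and 3 h did not deviate together (correlation of deviations 0.019), which cannot show whether the numbers pair the samples. The alternatives tried were other shares of bins, contacts in place of signal, filters and classes of contacts, ranks within chromosomes, self share with adjacent bins, other pseudocounts, windows and library sets, and each replicate left out.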

Additional observations from a re-analysis of the deposited data

How the results depend on the processing

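Few self contacts per member limit what any single bin can show, and the insulation, compartment and partner results changed sign within contact classes. Alternatives that hold self contacts at 20 or more, need self contacts at 0.25 h, or count signal off the self pair were chosen after the data were seen. So was the compartment score without chromosomes 9, 13, 17 and 22. With D ranked within contact classes, partner chromosomes 22, 19, 17, 4, 13 and 8 stood at -0.019, -0.14, -0.095, 0.032, 0.035 and 0.018, insulation at -0.025, the compartment score at -0.067, and the share in the upper compartment, members minus other bins, at -3.29 percentage points. Without the 20% of bins with the fewest contacts, 8 partner chromosomes were called, chromosomes 19 and 13 stood at -0.0076 and 0.019 while 22, 17 and 8 kept their direction and passed, the compartment score at -0.010 and the upper compartment at -0.349 points. With at least 20 self contacts, 11 partners were called, chromosome 13 stood at 0.035 while 22, 19, 17 and 8 kept their direction and passed, member to member trans contacts at -0.0017, the compartment score at -0.0031 and the upper compartment at -0.270 points. Off the self pair, the adjacent bin stood at -0.0047 and 1 to 2 Mb at -0.033, and with members chosen on self share with adjacent bins the adjacent bin stood at -0.11. Insulation with a 500 kb window was -0.00022. With D ranked within each chromosome, partner chromosomes 22, 19, 17, 4, 13 and 8 stood at 0.18, 0.13, 0.10, -0.048, -0.085 and -0.050. Partner chromosomes 22 and 13 stood at 0.16 and -0.040 for the bottom 20% of D, and at 0.33 and -0.11 for the bottom 5%. These kept the members' direction. The cause of these changes was not tested.

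Over all 8 libraries the means were 0.11 for member to member contacts, 0.031 for insulation and 0.13 for the compartment score, given as description since 4 of the 8 chose the members. Limma called 114 bins between 1 h and 3 h with no trend, and from 0 to 545 with 1 replicate left out. With the replicate number as a block it called 0, as it did without the block. The labels do not say whether the numbers pair the samples. Held-out D was 0.44 in the reverse direction. The share of next bins that are members, over that of all bins, was 1.22, and it was 1.496 for the bottom 5%, 1.09 for the bottom 20%, 1.08 without the poorest 20%, 1.963 with adjacent bins in the self share, 1.10 with at least 20 self contacts and 1.16 with self contacts at 0.25 h.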
